A study of Homo sapiens with 16 samples.

Results

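The 10 genes described here encode the core of the machinery that carries a cell from G1 into S phase. They are the D-type cyclins CCND1 and CCND3 with their kinases CDK4 and CDK6, the E-type cyclins CCNE1 and CCNE2 with their kinase CDK2, the CDK inhibitors CDKN1B and CDKN2C, and the transcription factor E2F1. They were chosen by gene symbol from the 60658 genes of the deposited tables, and each of the 10 symbols occurred once.

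Their transcripts were quantified by RNA-seq in the human triple-negative breast cancer line MDA-MB-231, as wild type (WT) and as a knockout (KO) of BMAL1, the circadian clock transcription factor encoded by ARNTL. Both genotypes were sampled under control conditions, under the DNA-crosslinking drug cisplatin, under doxorubicin, an intercalating drug that traps topoisomerase II on DNA, and under tunicamycin, which blocks N-linked glycosylation and was meant as a negative control. The 16 samples form 8 groups of 2 replicates that the labels call biological. The sources used here give no doses, exposure times or number of knockout clones. Each deposited table compares KO with WT under 1 treatment and holds 1 value per gene and group, in FPKM, a read-pair count corrected for transcript length and library size. There is therefore no spread between replicates to print, the overlap of replicates between groups could not be looked at, and every test is the one in the authors' deposited tables. A gene is called higher or lower in KO cells where its q-value, the p-value adjusted over all tested genes of its table, was at most 0.05. The p-values measure only the spread between these samples, which may be technical.

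In G1, D-type cyclins bind CDK4 or CDK6 and begin the phosphorylation of the retinoblastoma protein, which releases E2F factors. E2F factors raise transcription of the E-type cyclins, which bind CDK2 and complete that phosphorylation. Inhibitors of the INK4 family, such as p18 from CDKN2C, bind CDK4 and CDK6, while p27 from CDKN1B binds cyclin-CDK complexes and holds CDK2 inactive. BMAL1 with its partner CLOCK binds E-boxes (CACGTG) in promoters.

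ARNTL itself was at 5.67 FPKM in WT and 0.889 in KO control cells, and the authors' deposited table called it lower there. It was 1.26 against 0.941 under cisplatin, 1.31 against 0.474 under doxorubicin and 3.25 against 2.24 under tunicamycin. Of these 3 differences the authors' deposited tables called only the one under doxorubicin, with q = 0.467 under cisplatin and q = 0.0810 under tunicamycin. The mesenchymal markers of the line (VIM, CD44, EGFR, AXL, MSN and CAV1) summed to between 3815 and 8272 FPKM in the 8 groups. In KO cells 2 of these 6 were called higher and 3 lower in control, and 1 and 5 under cisplatin. Under doxorubicin it was 2 and 4, and under tunicamycin 1 and 5. In the authors' deposited tables CD44 was called lower and CAV1 higher in all 4, and EGFR lower under each drug. The log2 ratio of KO over WT for CD44 was -0.91 in control, -1.24 under cisplatin, -1.26 under doxorubicin and -1.25 under tunicamycin. Tested genes within 5 Mb of CD44 had medians of -0.68, -0.52, -0.62 and -0.50 in that order, so its neighbours were lower as well. Shares of all tested genes are given with the members below. Of 9 luminal and epithelial markers, which summed to 688 to 1479 FPKM, PGR was listed at 0 in all 8 groups and ESR1 stayed at or under 0.196 FPKM. KRT8 (402 to 739 FPKM) and KRT18 (85.0 to 775 FPKM) made up most of that sum. KRT8 and KRT18 were called higher in KO cells in all 4 of the authors' deposited tables. GATA3 was called higher in the 3 of the authors' deposited tables that tested it, and EPCAM and ERBB2 were called lower in all 4. CDKN2A and CDKN2B, known as deleted in this line, were listed at 0 in all 8 groups. Because 1 extraction protocol speaks of fibroblasts, 9 fibroblast markers were read as well: DCN was listed at 0 throughout, and the sum was 4.11 FPKM in WT and 12.6 in KO control cells, 9.07 and 15.6 with cisplatin, 1.05 and 3.92 with doxorubicin, and 3.33 and 9.97 with tunicamycin. PDGFRB was called higher in KO cells in all 4 of the authors' deposited tables and COL1A1 in 3, all but cisplatin. The part of these markers in the results was not tested. In bulk RNA, fewer cells of a type and less RNA per cell cannot be told apart.

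Promoter sequences are shown for the 3 genes whose window held a motif of BMAL1 or of E2F factors. RefSeq gives 12 promoter windows for 7 of the 10 genes (build GRCh38.p14), and the 250 bases before each start were searched on both strands for the E-box CACGTG and for the E2F forms TTTCCCGC, TTTCGCGC, TTTGCCGC and TTTGGCGC. CCND1, CCNE2 and CDK2 had no window. An E-box was found in 3 of the 12 windows, beside 6.34% of 35116 windows of all genes, and an E2F form in 1 window, beside 2.79%. Capitals mark the match in each sequence below. The first window of CDKN2C, chr1:50960495-50960744 on the + strand, and 30 bases around a further E-box, chr1:50970164-50970193, read as follows. That further E-box lies before the RefSeq start at 50970245, which is labelled second start below. A start between these, at 50968706, had a window with no E-box and is not shown.
CDKN2C: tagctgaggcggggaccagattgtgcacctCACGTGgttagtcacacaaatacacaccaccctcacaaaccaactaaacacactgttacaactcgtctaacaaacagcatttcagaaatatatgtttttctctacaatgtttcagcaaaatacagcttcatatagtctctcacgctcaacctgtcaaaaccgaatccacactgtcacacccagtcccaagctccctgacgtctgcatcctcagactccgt
CDKN2C second start: ttgctgaataatCACGTGtgaatcgagggg
The window of the start at 50970245 lies in annotated exon over all 250 bases. The CDK4 window on the - strand held 3 E-boxes. Of its 250 bases 211 lie in annotated exons, with 1, 6 and 6 bases of the E-boxes from the upstream to the downstream one, and the outer pair is shown with 30 bases each, chr12:57752509-57752538 and chr12:57752394-57752423.
CDK4 upstream site: atgtcaagcggtCACGTGtgatagcaacag
CDK4 downstream site: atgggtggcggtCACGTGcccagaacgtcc
The E2F1 window held 2 E2F forms next to each other, and 7 bases of the second lie in the annotated first exon. The stretch printed here is the first 238 of its 250 bases, chr20:33686398-33686635 on the - strand, and ends with the second form.
E2F1: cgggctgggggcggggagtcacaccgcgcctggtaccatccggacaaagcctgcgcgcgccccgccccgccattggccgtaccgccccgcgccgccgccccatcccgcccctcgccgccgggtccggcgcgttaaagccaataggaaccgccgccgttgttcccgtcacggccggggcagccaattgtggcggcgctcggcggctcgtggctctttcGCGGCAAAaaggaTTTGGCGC
A match describes the letters only, and no binding was measured in this series.

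In control cells, 4 of the 10 genes were called higher in KO and 4 lower. That table holds 12978 tested genes, of which 22.7% were called higher, 21.1% lower and 43.8% in either direction, and among the tested genes with at least 5 FPKM in 1 group, a background chosen after the values were seen, 52.3% were called in either direction. Under cisplatin 5 were called higher and 2 lower, beside 25.4% and 24.2% of all tested genes (49.6% in either direction). Under doxorubicin 4 were called higher and 2 lower of the 9 tested, beside 24.4% and 20.7% (45.1%). Under tunicamycin 3 were called higher and 4 lower, beside 27.2% and 22.1% (49.3%). Among genes with at least 5 FPKM in 1 group the share called was 62.8% under cisplatin, 63.9% under doxorubicin and 60.9% under tunicamycin, so calls were common at such levels. CCNE1, CCNE2, CDK6 and CDKN1B were below 5 FPKM in both doxorubicin groups, so the 63.9% does not describe them. The median log2 ratio of KO over WT across the members was 0.03, 0.15, 0.14 and -0.14 in control, cisplatin, doxorubicin and tunicamycin, while the median over all tested genes was 0.01, 0.02, 0.04 and 0.03. The members thus went both ways in every table, and 3 of them kept 1 called direction in all 4: CDK4 was higher, and CCND1 and E2F1 were lower. The differences of CDK4 and E2F1 were within 1.5-fold in all 4, and that of CCND1 was within it in control.

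**Figure D1:**
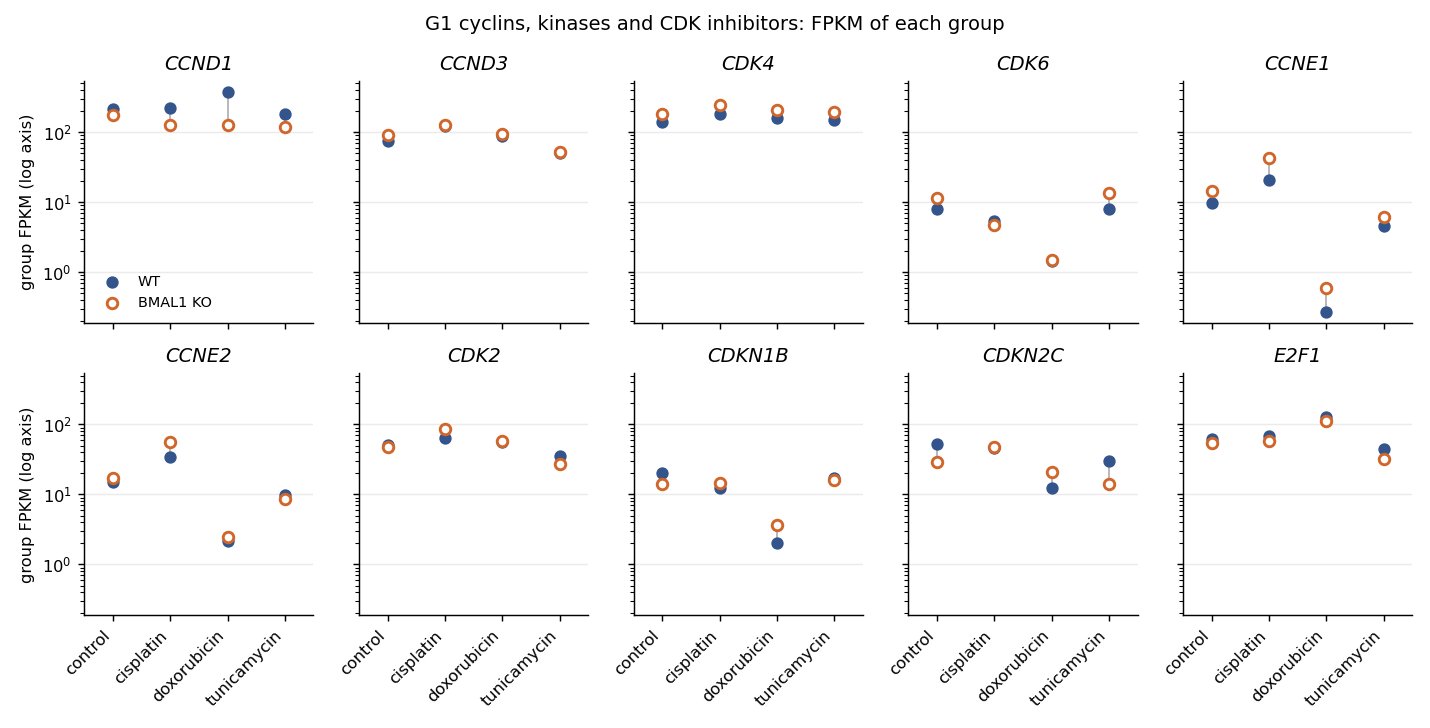
FPKM (log axis) of the 10 genes in the 8 groups, with 1 point per group as deposited by the authors from 2 replicates, so no error bar can be drawn. CCND1 points of KO cells lie under those of WT cells in all 4 treatments, and CDK4 points lie above; CCNE1, CCNE2 and CDKN1B are lowest under doxorubicin.

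CCND1, the cyclin D1 gene (chr11:69641087-69654474, GENCODE 29 on GRCh38), was the most abundant member in WT cells, at 211 FPKM in control, 222 under cisplatin, 374 under doxorubicin and 182 under tunicamycin. In KO cells it stood at 177, 126, 127 and 117 FPKM in the same order. Every KO value was thus below every WT value, though levels in different treatments come from tables normalized separately, and the high WT value under doxorubicin had no counterpart in KO cells. In the authors' deposited tables the log2 ratio of KO over WT was -0.25 in control, -0.82 under cisplatin, -1.56 under doxorubicin and -0.64 under tunicamycin, and all 4 were called, at q of 0.000213 or less. That q is the smallest each table holds and is shared by 3044 genes or more, so it does not rank CCND1 among them.

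CCND3, the cyclin D3 gene (chr6:41934933-42050357), was at 75.6, 123, 88.7 and 50.7 FPKM in WT and at 89.6, 128, 95.0 and 52.4 in KO cells, in the order control, cisplatin, doxorubicin and tunicamycin. The authors' deposited tables called it higher in control (log2 0.25) and under doxorubicin (log2 0.10, q = 0.0119), but not under cisplatin (log2 0.06, q = 0.0504) or tunicamycin (log2 0.05, q = 0.426). The doxorubicin difference was small and turned to -0.11 when FPKM were rescaled to the same sum in both groups. CCND2, the third D cyclin, did not exceed 2.10 FPKM in any group. With CCND1 lower and CCND3 little different, the sum of CCND1 and CCND3 was 287 FPKM in WT and 267 in KO control cells, 345 and 254 under cisplatin, 463 and 222 under doxorubicin, and 233 and 169 under tunicamycin. The ratio of CCND1 to CCND3 was 2.79 in WT and 1.98 in KO control cells, and 4.22 and 1.33 under doxorubicin. Under cisplatin it was 1.80 in WT and 0.979 in KO cells, the 1 group in which CCND3 exceeded CCND1.

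CDK4, the D-cyclin kinase with the higher level here (chr12:57747727-57756013), was at 141, 181, 158 and 148 FPKM in WT and at 184, 246, 208 and 192 in KO cells, in the order control, cisplatin, doxorubicin and tunicamycin. All 4 KO values exceeded all 4 WT values. The authors' deposited tables gave log2 ratios of 0.38, 0.44, 0.39 and 0.38, all called, which was the narrowest range of any member. Tested genes within 5 Mb of CDK4 had median log2 ratios of 0.19, 0.14, 0.32 and 0.14, so its neighbours were higher as well, and under doxorubicin CDK4 stood only a little above them. E-boxes of the sequences printed above lie upstream of its RefSeq start. TSPAN31 and MARCH9, which overlap CDK4 on the opposite strand, were at 7.09 to 14.7 and at 1.19 to 12.6 FPKM. The sources used here do not say whether counting used the strand.

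CDK6, the second D-cyclin kinase (chr7:92604921-92836594), was far less abundant, at 8.04, 5.41, 1.45 and 8.11 FPKM in WT and 11.4, 4.69, 1.49 and 13.7 in KO cells. It was higher in KO cells in control (log2 0.50) and under tunicamycin (log2 0.76) in the authors' deposited tables. Under cisplatin (log2 -0.21, q = 0.115) and doxorubicin (log2 0.04, q = 0.939) the authors' deposited tables did not call it. An antisense transcript inside the gene, AC002454.1, was at 1.81 to 5.58 FPKM, as high as CDK6 itself under doxorubicin. RNU6-10P, annotated as a small nuclear RNA inside CDK6 on the same strand, was at 0 to 366 FPKM. The low values of CDK6 are therefore uncertain. The CDK4 to CDK6 ratio was 17.5 in WT and 16.1 in KO control cells, 33.4 and 52.5 under cisplatin, 109 and 139 under doxorubicin, and 18.2 and 14.0 under tunicamycin.

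CDKN2C, the gene of the INK4 inhibitor p18 (chr1:50960745-50974633), whose upstream window is printed above, was at 53.1, 46.0, 12.2 and 30.05 FPKM in WT cells under control, cisplatin, doxorubicin and tunicamycin. In KO cells it was at 29.2, 47.1, 21.2 and 14.0 FPKM. The direction depended on the treatment. The authors' deposited tables called it lower in KO cells in control (log2 -0.86) and under tunicamycin (log2 -1.10), called it higher under doxorubicin (log2 0.79), and did not call it under cisplatin (log2 0.04, q = 0.458). The ratio of CDK4 to CDKN2C, kinase over inhibitor transcript, was 2.65 in WT and 6.29 in KO control cells, and 4.91 and 13.7 under tunicamycin. It was 3.94 in WT and 5.22 in KO cells with cisplatin. Under doxorubicin it was lower in KO cells, at 9.82 against 12.9.

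**Figure D2:**
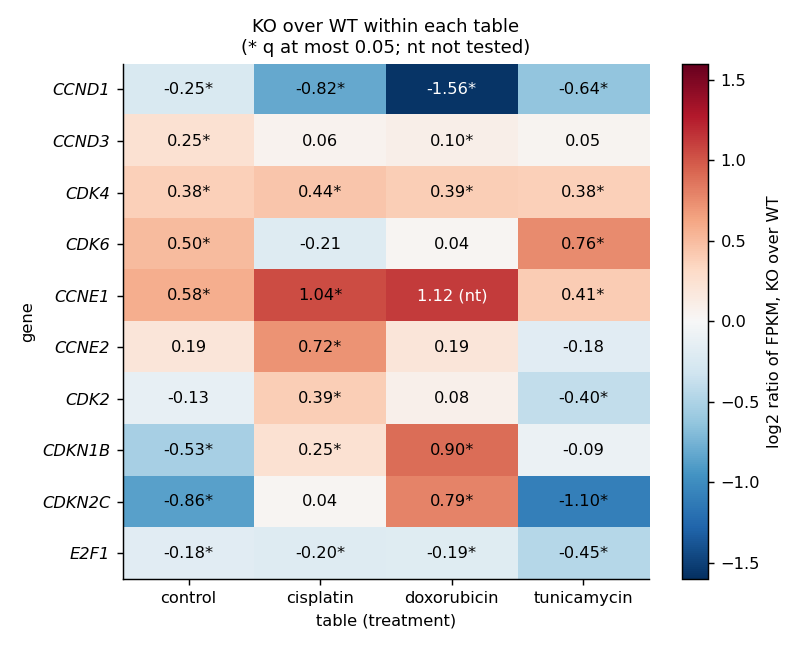
Heat map of the log2 ratio of KO over WT FPKM, with the 10 genes as rows and the authors' 4 deposited tables as columns; red is higher in KO cells, blue lower, an asterisk marks a call and nt a gene not tested. CCND1 reaches -1.56 under doxorubicin and CCNE1 1.04 under cisplatin, while CDKN1B and CDKN2C are blue in control and red under doxorubicin.

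CCNE1, the cyclin E1 gene (chr19:29811898-29824308), was at 9.71, 20.8, 0.269 and 4.604 FPKM in WT and at 14.5, 42.8, 0.586 and 6.12 in KO cells, in the order control, cisplatin, doxorubicin and tunicamycin. KO cells held more in each treatment, and both genotypes were near 0 under doxorubicin. In the authors' deposited tables it was called higher in control (log2 0.58, q = 0.000777), under cisplatin (log2 1.04) and under tunicamycin (log2 0.41, q = 0.0294). Under doxorubicin the authors' deposited table marks it as not tested.

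CCNE2, the cyclin E2 gene on chromosome 8, was at 15.2, 33.8, 2.16 and 9.67 FPKM in WT and at 17.4, 55.6, 2.46 and 8.52 in KO cells. The authors' deposited tables called it only under cisplatin (log2 0.72). In control the log2 ratio was 0.19 (q = 0.182), under doxorubicin 0.19 (q = 0.650) and under tunicamycin -0.18 (q = 0.272) in the authors' deposited tables. INTS8 at 8.36 to 18.7 FPKM and NDUFAF6 at 13.3 to 31.4 FPKM overlap CCNE2 on the opposite strand, so its level is uncertain where counting ignored strand. The E cyclins together were at 24.96 FPKM in WT and 31.9 in KO control cells, at 54.7 and 98.4 under cisplatin, at 2.42 and 3.04 under doxorubicin, and at 14.3 and 14.6 under tunicamycin. Within that sum CCNE1 weighed more in KO cells: CCNE2 over CCNE1 was 1.57 in WT and 1.205 in KO control cells, 1.62 and 1.298 under cisplatin, 8.002 and 4.19 under doxorubicin, and 2.10 and 1.39 under tunicamycin.

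CDK2, the kinase of the E cyclins (chr12:55966769-55972784), was at 51.4, 64.8, 55.8 and 35.9 FPKM in WT and 46.9, 84.9, 58.8 and 27.3 in KO cells. It was thus called in opposite directions in 2 of the authors' deposited tables, higher under cisplatin (log2 0.39) and lower under tunicamycin (log2 -0.40, q = 0.000335). In control (log2 -0.13, q = 0.637) and under doxorubicin (log2 0.08, q = 0.573) the authors' deposited tables did not call it. Cisplatin was the 1 treatment in which CCNE1, CCNE2 and CDK2 were all called higher in KO cells.

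CDKN1B, the gene of p27 (chr12:12715058-12722371), was at 20.4, 12.3, 1.99 and 17.1 FPKM in WT and 14.1, 14.5, 3.71 and 16.0 in KO cells. KO cells held less in control and more under both DNA-damaging drugs. The authors' deposited tables called it lower in control (log2 -0.53), higher under cisplatin (log2 0.25, q = 0.0404) and doxorubicin (log2 0.90, q = 0.00415), and not under tunicamycin (log2 -0.09, q = 0.283). The cisplatin difference turned to -0.10 after subtraction of the median of the tested genes within 5 Mb. CCNE1 over CDKN1B, cyclin over inhibitor transcript, was 0.477 in WT and 1.02 in KO control cells, 1.70 and 2.95 under cisplatin, 0.135 and 0.158 under doxorubicin, and 0.269 and 0.382 under tunicamycin. It was higher in KO cells in each treatment. CDK2 over CDKN1B was 2.52 in WT and 3.31 in KO control cells, 5.29 and 5.84 under cisplatin, 28.0 and 15.9 under doxorubicin, and 2.10 and 1.70 under tunicamycin, so it was lower in KO cells under the last pair of drugs.

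**Figure D3:**
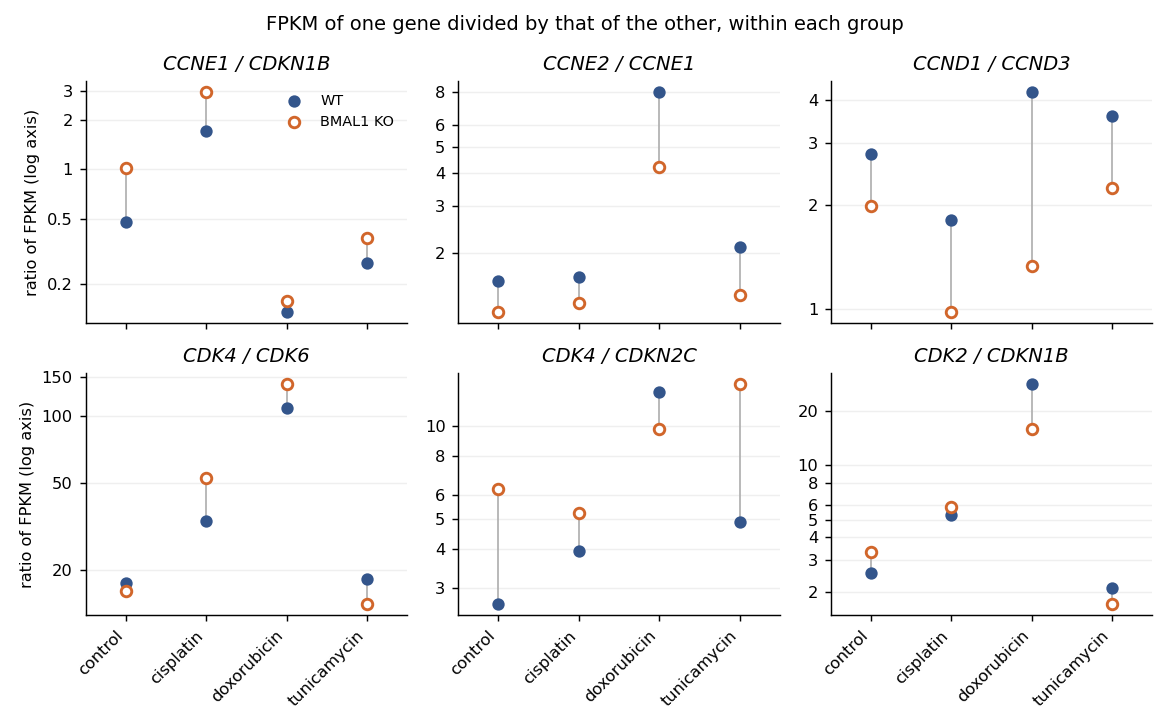
Ratio of the FPKM of paired genes (log axis) within each group, WT filled and KO open, with 1 value per group and no error. CCNE1 over CDKN1B is higher in KO cells in all 4 treatments and CCND1 over CCND3 is lower in all 4, whereas CDK4 over CDKN2C changes order under doxorubicin.

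E2F1, the activator E2F that is held by the retinoblastoma protein (chr20:33675683-33686404), was at 61.3, 67.5, 127 and 44.4 FPKM in WT and 54.0, 58.8, 111 and 32.4 in KO cells. It was called lower in KO cells in all 4 of the authors' deposited tables, with log2 ratios of -0.18, -0.20, -0.19 and -0.45. Doxorubicin groups held the most E2F1 and tunicamycin groups the least, in both genotypes.

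The drug responses were described within each genotype as the log2 ratio of FPKM plus 1 against the control table, with no test, because these tables were normalized separately and each group has 1 value. All 3 drugs are set against the same control group, so their ratios share it. Under cisplatin 3 members were past 1.5-fold higher and 1 lower in WT cells, beside 18.1% and 11.1% (29.2% in either direction) of the genes tested in both tables. In KO cells 4 were higher and 1 lower under that drug, beside 17% and 13.8% (30.9%). Doxorubicin left 2 higher and 5 lower in WT cells, beside 11% and 48% (59%), and 1 higher and 4 lower in KO cells, beside 13.1% and 48.5% (61.6%). Tunicamycin left 0 higher and 3 lower in WT cells, beside 9.05% and 11% (20%), and 0 higher and 7 lower in KO cells, beside 6.97% and 8.13% (15.1%). KO cells under tunicamycin thus had the most members past 1.5-fold below control, although 8 members in WT and 7 in KO cells lay below control at any size. Under doxorubicin the median gene moved by -0.52 in WT and by -0.53 in KO cells on this log2 scale, so that drug's values are best read against that shift. With the median gene subtracted, 5 members were past 1.5-fold higher and 5 lower in WT cells, and 4 higher and 4 lower in KO cells; CCND3, CDK4 and CDK2 joined the higher ones in both. Transcripts of the mitochondrial genome held 9.71% of all FPKM in WT and 9.37% in KO doxorubicin cells, against 4.95% and 3.62% in control, and their part in the result was not tested.

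Cisplatin groups had the highest E cyclin levels of the series. In plain FPKM, CCNE1 was at 215% of its control level in WT and 296% in KO cells, and CCNE2 at 222% and 319%. CCND3 was at 163% and 143%, and CDK2 at 126% and 181%. That places both E cyclins above the other members. CDKN1B was at 60.1% of control in WT but 103% in KO cells, and CDKN2C at 86.5% and 161%. CDK6 was at 67.3% in WT and 41.2% in KO cells. In both genotypes the E cyclins were therefore higher and CDK6 lower. The inhibitors were below control in WT but not in KO cells, with CDKN2C in WT cells within 1.5-fold of control. No test of that difference between genotypes was possible. With the median gene subtracted, the log2 ratio of CDKN1B in KO cells went from 0.04 to -0.08, so its direction there depends on the scaling.

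Under doxorubicin CCNE1 was at 2.77% of control in WT and 4.05% in KO cells. These percentages are plain FPKM ratios with no pseudocount (log2 -5.17 and -4.63). On the scale of FPKM plus 1 the log2 ratios were -3.08 and -3.29, so the size of the difference and the order of the genotypes depend on the pseudocount at this low level. On that second scale 4.15% of the genes with FPKM of at least 1 in 1 of the groups were as low in WT cells. CCNE2 was at 14.1% in both genotypes, and CDK6 was at 18.1% and 13.1%. CDKN1B was at 9.77% of control in WT and 26.2% in KO cells, and CDKN2C at 23.0% and 72.4%. Both inhibitors were thus further below control in WT than in KO cells. E2F1 went the other way from the E cyclins, at 207% in WT and 205% in KO cells. CCND1 was at 177% of control in WT but 71.3% in KO cells, on opposite sides of its control level. With the median gene subtracted, the log2 ratios of CCND1 and CDKN2C in KO cells became 0.04 and 0.08, so their direction there depends on the scaling.

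Under tunicamycin CCNE1 was at 47.4% of control in WT and 42.3% in KO cells, CCNE2 at 63.5% and 48.9%, and CDKN2C at 56.6% and 48.0%. All were lower than in control in both genotypes. CDK4 stayed near its control level, at 105% in both.

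**Figure D4:**
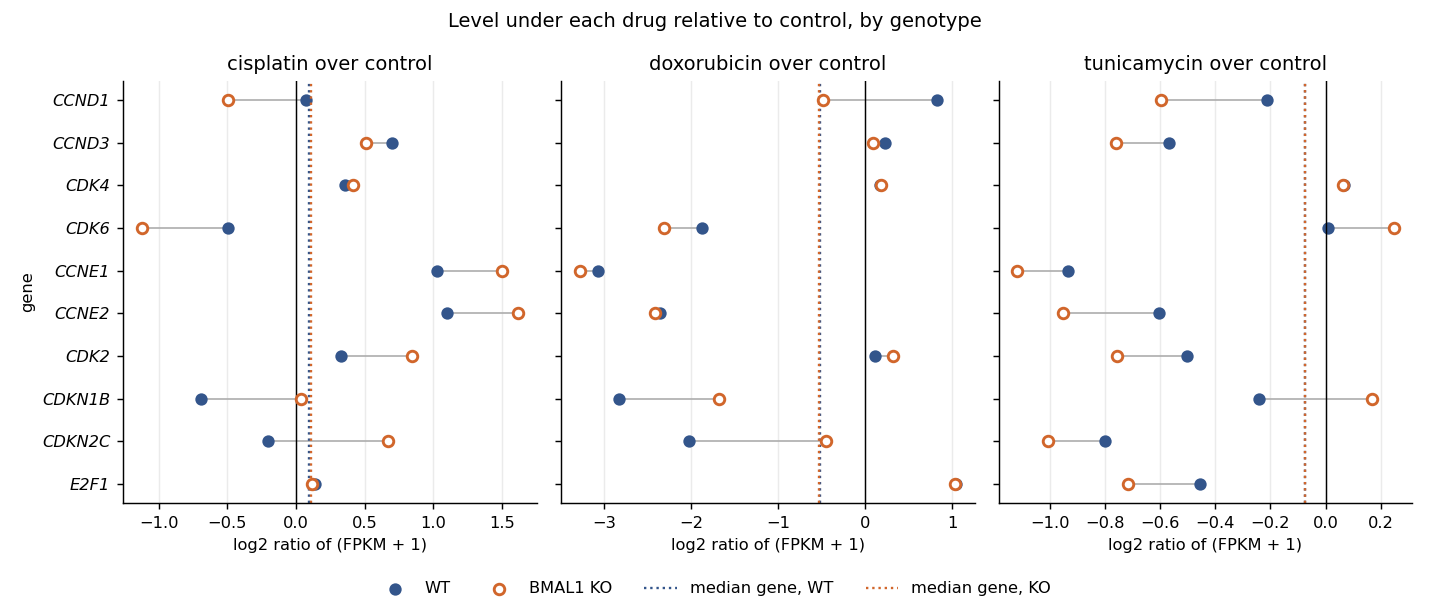
Log2 ratio of FPKM plus 1 of each drug over control for the 10 genes, WT filled and KO open, with dotted lines at the median gene; single pooled values, so no error bars. CCNE1 and CCNE2 lie right of 0 under cisplatin and far left under doxorubicin in both genotypes, and CCND1 lies at opposite sides of 0 under doxorubicin, with its KO point at the line of the median gene.

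The difference between the KO over WT log2 ratio under a drug and in control was read as a value, with no test of the difference. It was past 1.5-fold for 3 members under cisplatin, beside 29.7% of the genes tested in both tables: CDK6 at -0.71, CDKN1B at 0.77 and CDKN2C at 0.90. Under doxorubicin it was past 1.5-fold for 3, beside 29.9%: CCND1 at -1.31, CDKN1B at 1.42 and CDKN2C at 1.65. Under tunicamycin none was, beside 20.9%. The inhibitors CDKN1B and CDKN2C passed the fold under both DNA-damaging drugs, and the 3 drugs share the control table.

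Other regulators of the pathway were read from lists. Of 10 other G1 regulators, 7 were tested in control, and 0 were called higher and 4 lower. Under cisplatin 2 of 8 were higher and 4 lower. Under doxorubicin it was 0 of 6 higher and 2 lower, and under tunicamycin 1 of 8 higher and 4 lower. Of all tested genes 21.1%, 24.2%, 20.7% and 22.1% were called lower, in the same order. The shares called in either direction were 43.8%, 49.6%, 45.1% and 49.3%. CDKN1A, the p21 gene, was at 22.9, 76.9, 24.0 and 28.8 FPKM in WT and 14.1, 62.4, 15.4 and 21.6 in KO cells, called lower in all 4 of the authors' deposited tables. CDKN2D, an INK4 inhibitor, was called lower in all 4 as well, at 52.6 in WT and 32.5 FPKM in KO control cells. Thus 2 CDK inhibitors outside the members were lower in KO cells in each treatment, unlike CDKN1B and CDKN2C. MNAT1, a part of the CDK-activating kinase, was called lower in control and under cisplatin, and CDKN1C, the p57 gene, was called lower only under tunicamycin. The list's tested genes had a median log2 ratio of -0.37, -0.15, -0.31 and -0.21.

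Of 10 genes for the degradation of cyclins and p27, 1 was called higher and 4 lower in control, 4 and 2 under cisplatin, 4 and 0 of 8 tested under doxorubicin, and 4 and 1 under tunicamycin. In the same order 43.8%, 49.6%, 45.1% and 49.3% of all tested genes were called in either direction. SKP2, the F-box protein that marks p27 for degradation, was at 12.9 in WT and 19.4 FPKM in KO control cells, 16.3 and 32.5 under cisplatin, 7.05 and 9.75 under doxorubicin, and 6.16 and 7.35 under tunicamycin. It was called higher in the first 3 of the authors' deposited tables but not in the last (q = 0.113). Other parts of its ligase, CKS1B, SKP1 and RBX1 were called lower in KO control cells and higher under each drug, CKS1B going from 334 to 246 FPKM in control and from 437 to 573 under doxorubicin. Their log2 ratios under the drugs were small, at 0.22 to 0.39. The summed FPKM of all genes was itself higher in KO cells by log2 0.21 under doxorubicin and 0.14 under tunicamycin. Medians of tested genes within 5 Mb of CKS1B were 0.15, 0.21 and 0.11 under the 3 drugs. CUL1, the scaffold of the same ligase, was named after its values were seen: it was called lower in control, cisplatin and tunicamycin (log2 -0.20, -0.19 and -0.33) and not called under doxorubicin (log2 -0.08, q = 0.735) in the authors' deposited tables. Medians over the list's tested genes were -0.14 in control and 0.23, 0.23 and 0.22 under the drugs, on the log2 scale.

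Of 12 genes for pocket proteins, E2F factors and their DP partners, 3 were called higher and 4 lower in control, 6 and 3 under cisplatin, 3 and 2 of 10 tested under doxorubicin, and 5 and 2 under tunicamycin. These counts stand beside 43.8%, 49.6%, 45.1% and 49.3% of all tested genes called in either direction. RB1, the retinoblastoma gene that the cyclin D kinases act on, was called higher in all 4 of the authors' deposited tables, at log2 0.70, 0.57, 1.02 and 0.73. TFDP1, the DP partner of E2F1, was also called higher in all 4, at log2 1.08, 1.004, 1.05 and 1.05. Both lie on chromosome 13, where the median log2 ratio of tested genes within 5 Mb was 0.82, 1.24, 0.99 and 1.09 around RB1 and 0.93, 0.85, 0.74 and 0.89 around TFDP1, so the genes around both were higher in KO cells as well. RBL2, the p130 gene, was called lower in all 4 of the authors' deposited tables, at low levels of 1.48 to 4.35 FPKM (q = 0.0309 in control). E2F6, a repressor E2F, was called lower in control (log2 -0.52, beside a median of -0.32 for tested genes within 5 Mb). The authors' deposited table also called E2F6 lower under doxorubicin, but at only 1.17 FPKM in WT and 0.436 in KO cells (q = 0.0419). The median log2 ratio of the list was -0.12, 0.32, 0.12 and 0.08.

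Of 23 E2F target genes of the G1/S transition, all tested in each table, 8 were called higher and 8 lower in control, 10 and 4 under cisplatin, 8 and 10 under doxorubicin, and 7 and 9 under tunicamycin. Of all tested genes 43.8%, 49.6%, 45.1% and 49.3% were called in either direction, in that order. Among genes with at least 5 FPKM in 1 group, the shares were 52.3%, 62.8%, 63.9% and 60.9%. Some targets were below 5 FPKM in both groups under cisplatin or doxorubicin, so the second set of shares does not describe those there. MYBL2, an E2F-driven transcription factor, was called higher in all 4 of the authors' deposited tables, from 57.2 to 147 FPKM in control and from 14.8 to 63.8 under doxorubicin. PCNA, the sliding clamp of replication, was called lower in all 4, from 221 to 140.2 FPKM in control and from 121 to 59.4 under doxorubicin. SLBP, which binds histone mRNA, was called lower under doxorubicin and tunicamycin and higher under cisplatin, and UNG, a uracil glycosylase, was called lower in control, doxorubicin and tunicamycin. UNG's log2 ratios were -0.49, 0.06, -0.64 and -0.70, beside medians of -0.43, -0.41, -0.37 and -0.35 for tested genes within 5 Mb. The targets went both ways in each table, with medians of -0.08, 0.09, -0.04 and -0.07.

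**Figure D5:**
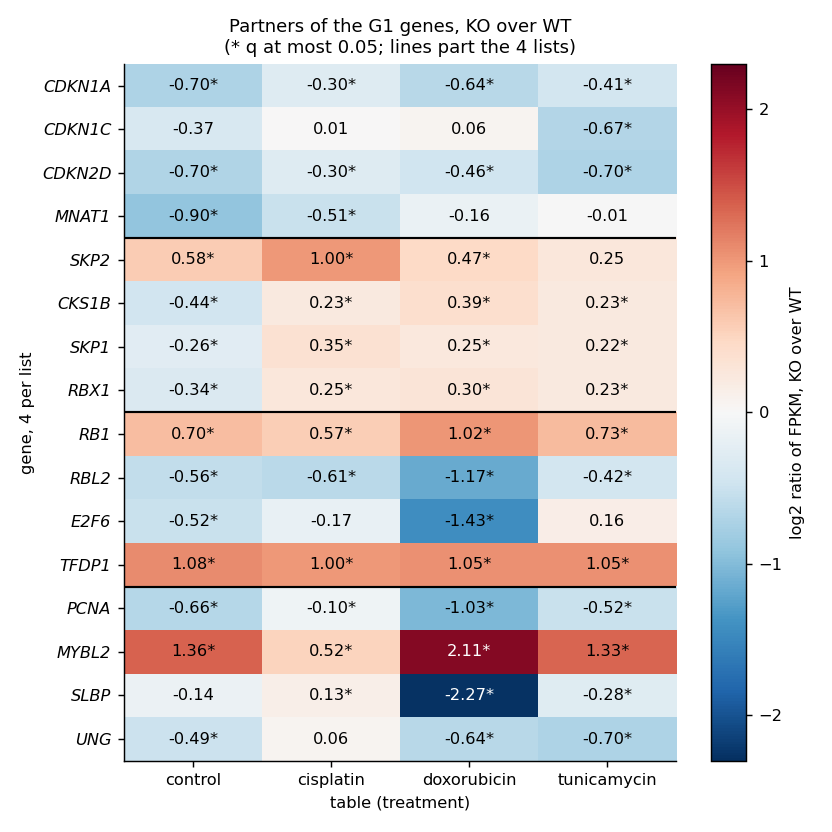
Heat map of the log2 ratio of KO over WT FPKM, with 4 partner genes of each list as rows and the authors' 4 deposited tables as columns; red is higher in KO cells, blue lower, and an asterisk marks a call. CDKN1A, CDKN2D, RBL2 and PCNA are blue in all 4 columns and TFDP1, RB1 and MYBL2 red in all 4.

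The genes whose pattern over the 8 group values was most like that of 3 members were found by Pearson's r of log2 FPKM plus 1 over 5912 other genes or more. The 8 values are in 4 separately normalized tables and share them, so r is a description. For CCNE1 they were RAD1 (r = 0.996), a checkpoint clamp gene, RCC1 (r = 0.993), a chromatin-bound nucleotide exchange factor, and MRTO4 (r = 0.991), a ribosome assembly factor. For CCND1 they were SLC39A13 (0.950), a zinc transporter, BICD2 (0.929), a dynein adaptor, and SUN1 (0.920), a nuclear envelope protein. For CDKN2C they were VTA1 (0.953), PLEKHJ1 (0.934) and SPAG5 (0.922), a spindle protein. RAD1 was at 37.7 FPKM in WT and 54.5 in KO cells with cisplatin and at 10.3 and 11.4 under doxorubicin, high and low in the same groups as CCNE1.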

How the data were processed

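RNA-seq of MDA-MB-231 cells was used, with 16 samples grouped by the labelled genotype and treatment into 8 groups of 2. Per the labels' protocols, libraries were made from total RNA with an mRNA kit and sequenced paired-end. Processing by the submitters involved Cuffdiff, Cufflinks, STAR 2.5.3, Trimmomatic 0.35, FastQC 0.11.5 and build hg38, per the submitters' processing notes. The sources used here give neither the annotation release nor the use of strand. The authors deposited 4 tables, and each holds 1 FPKM value per group from both replicates; no counts or values per library were used, so depth is unknown and no interval can be given. Deposited log2 values are the authors' ratio of KO over WT with no pseudocount, and recomputation agreed to within 4.64e-05. A deposited score gives Cuffdiff's test statistic per gene. The p-values and q-values were deposited by the authors, and Benjamini-Hochberg recomputation of q agreed to within 5.25e-07. The reported tests are these; the code was tested on simulated data.

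The members and lists were chosen with earlier results of these data known. The 10 members are named in every table, and up to 4 genes per list, those with the largest summed absolute log2 ratio among genes tested in all 4 tables. Drug ratios used log2 of FPKM plus a pseudocount of 1. A fold threshold of 1.5 and a q threshold of 0.05 were used. Alternatives were other thresholds, a filter at FPKM of 1, pseudocounts of 0.1 and none, rescaling to an equal sum, and subtraction of the median gene or of tested genes within 5 Mb. Positions are from GENCODE 29, promoters from RefSeq GRCh38.p14. Python 3.11.15, pandas 2.3.3, numpy 2.4.6 and matplotlib 3.10.9 were used.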

Additional observations from a re-analysis of the deposited data

Results flagged for a closer look

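In 3 genes the called difference between KO and WT cells had opposite directions under different treatments, and the difference between treatments was not tested. CDK2 had a log2 ratio of 0.39 under cisplatin and -0.40 under tunicamycin in the authors' deposited tables. CDKN1B had -0.53 in control, 0.25 under cisplatin and 0.90 under doxorubicin in the authors' deposited tables. CDKN2C had -0.86 in control, 0.79 under doxorubicin and -1.10 under tunicamycin in the authors' deposited tables. Each group has 1 pooled value, so whether both replicates share these directions could not be looked at.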

How the results depend on the processing

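Counts of called members were within 1.5 times of those reported under a q of at most 0.01, a filter at FPKM of 1 and both subtractions. With at least 1.5-fold required they were 0 higher and 1 lower in control, 2 and 1 under cisplatin, 2 and 1 under doxorubicin, and 1 and 2 under tunicamycin. Subtracting the median gene raised the members past 1.5-fold under doxorubicin in KO cells from 5 to 8 and in WT cells from 7 to 10, and the members added in both were higher than in control. The log2 ratio of KO over WT changed sign in these cases. After subtraction of the median of genes within 5 Mb, CCND3 became -0.0906, CDKN1B -0.10 and CDKN2C -0.13 under cisplatin, CCND3 -0.13 and CDK2 -0.26 under doxorubicin, and CCND3 -0.0081 under tunicamycin. After rescaling to an equal sum, which moves all genes by -0.21 under doxorubicin and -0.14 under tunicamycin, CDKN2C became -0.0053 under cisplatin, CCND3 -0.11, CDK6 -0.17, CCNE2 -0.0214 and CDK2 -0.13 under doxorubicin, and CCND3 -0.0866 under tunicamycin. After subtraction of the median gene CDK6 became -0.0063 under doxorubicin. The cause was not tested. No paired analysis was possible because each group has 1 value pooled over its replicates, and for the same reason no replicate could be left out. Without counts, the depth behind low values such as CCNE1 under doxorubicin is unknown.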

Other observations

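Under doxorubicin the rest of the E2F family did not follow E2F1. Of the 12 genes for pocket proteins, E2F factors and DP partners, 9 were below control by more than 1.5-fold in WT and 9 in KO cells, and 0 were above it, beside 48% and 48.5% of all genes tested in both tables that were that far below control. E2F3, an activator like E2F1, went from 11.3 FPKM in WT control to 0.438 under doxorubicin, and in KO cells from 9.13 to 0.704. E2F7 and E2F8, repressor E2Fs, were at 10.9 and 5.596 FPKM in WT control and at 0.793 and 0.300 under doxorubicin. These 3 genes were named after their values were seen. CDC25A, the phosphatase that activates CDK2, was at 17.7 FPKM in WT control and 0.238 under doxorubicin, and in KO cells at 21.9 and 0.183, and it too was named after its values were seen. None of these responses has a test.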
